A study of Mus musculus with 12 samples.

Results

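The interferon response genes are genes that cells switch on after interferon, a family of cytokines released on viral infection and in inflammation. A list of 37 such genes was read from 12 Illumina arrays of RNA from cultured mouse hepatic stellate cells, the retinoid-storing liver cells that lay down scar matrix once activated. The genes were found by their symbol in the platform's probe annotation, and each gene was read by its brightest probe among those above background. Of the 37 genes, 36 had a probe of that symbol among the 19057 genes with one, and 34 passed the filter on low signal, among 13300 genes tested. Ifi44, an interferon-induced cytoplasmic protein, had no probe listed here. Ifit1, which binds foreign RNA, was above background on 0 of 12 arrays and Xaf1, an antagonist of an apoptosis inhibitor, on 1 of 12, and neither was tested. Their values are not read further.

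Type I interferons bind the receptor chains Ifnar1 and Ifnar2, which act through Janus kinases. A complex that contains Stat2 and Irf9 then binds the interferon-stimulated response element, whereas interferon gamma acts largely through the gamma-activated site. The induced proteins sense foreign nucleic acid, block viral replication, modify other proteins and load antigen. In liver, macrophages, endothelial cells, hepatocytes and stellate cells can all express them.

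The knockout cells came from mice homozygous for a floxed Pdgfrb gene, on the 129S4/SvJae background, that also carried Cre recombinase from an FVB line under the promoter of Gfap, an astrocyte and stellate cell gene. The wild-type cells came from Cre-negative animals of that cross, which carry the floxed alleles too. Both were grown in medium with 10% serum. They were then given PDGF-B, a growth factor and ligand of the targeted receptor, at 10 ng/ml in serum-free medium with albumin, or no PDGF-B. The 4 groups of 3 arrays were knockout with PDGF-B, knockout without ligand, wild type with PDGF-B and wild type without ligand. The age and sex of the animals and the length of the treatment are not stated in the sources used.

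Each array title carries a code that is shared by 1 array with and 1 array without PDGF-B. The knockout codes are P524, P338 and P522, the wild-type codes P11, P393 and P530, and each code is called a preparation below. Nothing in the labels tells what unit a code marks (1 animal, a pool or 1 culture), so the p-values cover only the spread of these arrays, which may be technical. Between 45.3% and 53.1% of the probes of an array were above background. The probe of the targeted gene, Pdgfrb, was above background on all 12 arrays and did not separate the genotypes. It lay at 6.41 to 7.73 in knockout cells and 6.67 to 7.79 in wild-type cells on the log2 scale. The sources used do not place that probe inside or outside the deleted part, so its level does not check the labels, and genotype below means the genotype as labelled.

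The promoters of the members were searched for the elements that interferon-activated factors bind. The core of the interferon-stimulated response element, spelled GAAA, any 2 bases and GAAA, or TTTC, any 2 bases and TTTC on the other strand, stood in 16 of the 32 RefSeq promoters found for 29 member genes (50%), against 3.44% of all 32841 promoters of that table, each 300 bases long. The core of the gamma-activated site, TTCNNNGAA, which reads the same on both strands and can share bases with the first motif, stood in 8 of the 32 (25%), against 8.30% of all. A match of these letters is a description and not a bound site. The 5 promoters printed here belong to the genes with a response element core and the smallest p-value in the comparison of preparations. They run from 250 bases before to 50 bases after the gene's start in build GRCm38.p6, 5′ to 3′ on the gene's strand, and capitals mark the response element cores.
Gbp2, chr3:142620413-142620712, plus strand: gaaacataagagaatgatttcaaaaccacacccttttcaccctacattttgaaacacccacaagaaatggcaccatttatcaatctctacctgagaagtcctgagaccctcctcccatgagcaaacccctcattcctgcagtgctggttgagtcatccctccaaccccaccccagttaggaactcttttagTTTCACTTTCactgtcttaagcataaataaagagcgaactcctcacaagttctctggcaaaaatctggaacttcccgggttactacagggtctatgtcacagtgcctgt
Ifit3, chr19:34583279-34583578, plus strand: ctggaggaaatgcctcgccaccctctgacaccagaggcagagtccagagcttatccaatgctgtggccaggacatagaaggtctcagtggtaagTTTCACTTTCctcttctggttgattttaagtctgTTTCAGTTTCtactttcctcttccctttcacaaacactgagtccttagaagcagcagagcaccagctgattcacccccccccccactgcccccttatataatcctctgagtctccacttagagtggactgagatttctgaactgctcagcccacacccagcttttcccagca
Ifitm3, chr7:141010695-141010994, minus strand: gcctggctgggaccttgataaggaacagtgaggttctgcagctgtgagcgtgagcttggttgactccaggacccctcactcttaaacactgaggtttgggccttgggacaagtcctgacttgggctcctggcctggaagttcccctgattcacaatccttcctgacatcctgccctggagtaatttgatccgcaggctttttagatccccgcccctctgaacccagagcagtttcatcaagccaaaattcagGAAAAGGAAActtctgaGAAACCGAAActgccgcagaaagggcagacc
Bst2, chr8:71537423-71537722, minus strand: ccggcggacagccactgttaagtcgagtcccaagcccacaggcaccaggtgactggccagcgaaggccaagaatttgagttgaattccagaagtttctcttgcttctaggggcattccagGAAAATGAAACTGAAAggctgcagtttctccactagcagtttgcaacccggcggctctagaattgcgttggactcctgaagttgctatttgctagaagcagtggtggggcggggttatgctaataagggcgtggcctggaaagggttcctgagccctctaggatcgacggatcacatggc
Igtp, chr11:58199306-58199605, plus strand: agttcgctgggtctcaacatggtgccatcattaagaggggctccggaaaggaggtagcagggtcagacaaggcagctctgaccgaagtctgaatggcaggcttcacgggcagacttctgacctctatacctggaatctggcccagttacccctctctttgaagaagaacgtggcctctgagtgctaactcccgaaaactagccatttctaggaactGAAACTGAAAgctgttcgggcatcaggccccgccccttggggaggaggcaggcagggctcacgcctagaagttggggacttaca
Gbp2, a guanylate-binding GTPase, and Igtp, a GTPase of the immunity-related family, each hold 1 core. Ifit3, an antiviral RNA-binding partner protein, Ifitm3, a membrane protein that blocks viral entry, and Bst2, which tethers budding virus to the cell, each hold 2. In Bst2 the cores overlap, and in Ifitm3 both lie after the start.

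**Figure D1:**
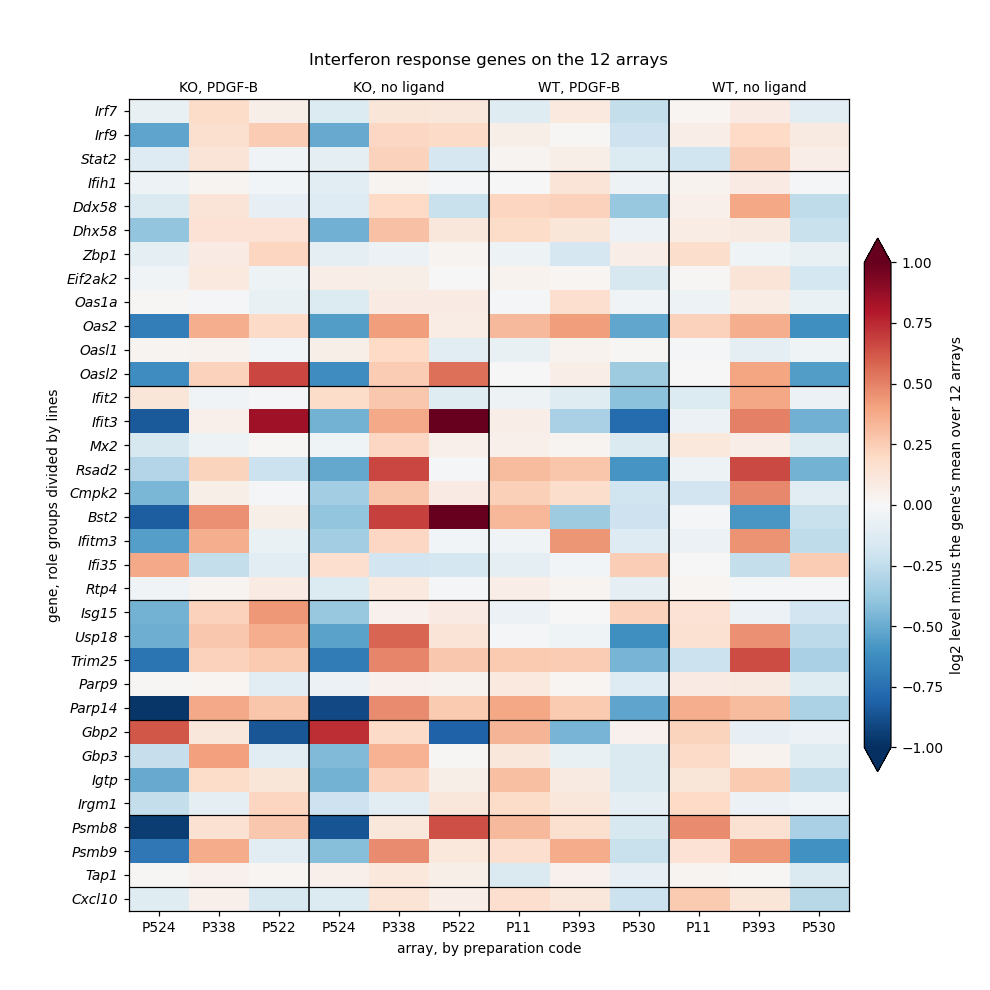
Colours show the log2 level of each of the 34 tested genes (rows, role groups divided by lines) on each of the 12 arrays (columns, by group and preparation), minus that gene's mean over the 12 arrays. The P524 columns among knockout arrays and the P530 columns among wild-type arrays are blue for most genes, with and without PDGF-B.

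The interferon response genes varied mainly between preparations of the same genotype, by up to 3.10-fold on the scale used here. An F test over the preparations within each genotype, in a limma model with a term per preparation and the ligand change of each genotype, called 23 of the 34 members at an adjusted p under 0.05, where 45.6% of all 13300 genes were called. Among genes above background on all 12 arrays, 22 of 28 members were called, against 59.3% of the 9375 such genes. The preparation took a median of 81.2% of a member's variance around its mean, against 64.6% over all genes, and the genotype 2.28%, against 5.17%. Without preparation P524, 15 of 34 members were called, against 28.2% of all genes.

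P524 and P530 were the low preparations for most members. Among the knockout preparations P524 was lowest for 27 of 34 members (79.4%), where it was lowest for 36.2% of all genes. Among the wild-type preparations P530 was lowest for 27 members (79.4%), where it was lowest for 34.1% of all genes. Both held for 23 members (67.6%), against 15.6% of all genes. Some members also share a locus: Rsad2 and Cmpk2, Psmb9, Tap1 and Psmb8, Ifit2 and Ifit3, and Oasl2 and Oasl1 are neighbours among protein-coding genes.

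Each pair of preparations was then compared. In P524 against P338, 19 members were lower and 2 higher (Gbp2 and Ifi35), where 13.9% of all genes were called lower and 13.1% higher, and the members' median difference was -0.43 on the log2 scale. In P524 against P522, 17 members were lower and 2 higher, again Gbp2 and Ifi35, where 17.9% and 21.1% of all genes were called, with a median of -0.28. In P530 against P11, 11 members were lower and 0 higher, against 6.88% and 7.26% of all genes, with a median of -0.23. In P530 against P393, 15 members were lower and 1 (Ifi35) higher, against 8.76% and 8.27%, with a median of -0.25. The members' median difference was smaller in the remaining pairs, at -0.09 in P522 against P338 and 0.05 in P393 against P11. In P522 against P338, 7 members were lower and 3 higher, against 11.6% and 8.95% of all genes. In P393 against P11, 2 were lower and 1 higher, against 4.9% and 6.05%. Scaling each array by its median instead of quantiles left 10 members lower in P524 against P522 (6.73% of all genes), and 5 in P530 against P11 (1.7%). That scaling also moved the median of all genes to 0.12 in P524 against P522 and to -0.16 in P530 against P393, and relative to these shifts the members' median was -0.23 and -0.33.

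Among the signalling factors, 2 of 3 differed between preparations, where the same test called 45.6% of all genes. Irf9, the DNA-binding subunit of the interferon-activated complex, had log2 levels of 7.71, 8.40 and 8.50 with PDGF-B and 7.73, 8.45 and 8.43 without it in the knockout preparations P524, P338 and P522, against 8.30, 8.25 and 8.03 with PDGF-B and 8.30, 8.44 and 8.33 without it in the wild-type preparations P11, P393 and P530. P524 was the low sample in both conditions, and the wild-type preparations lay close together (F test adjusted p = 2.43e-04). The second Irf9 probe above background was also lowest in P524. Among wild-type preparations it was lowest in P393, with 7.10, 6.79 and 6.92 in P11, P393 and P530. Irf7, the factor that amplifies interferon alpha production, had preparation means of 6.09, 6.34 and 6.28 in P524, P338 and P522 and 6.14, 6.28 and 6.02 in P11, P393 and P530 (adjusted p = 0.0268). Stat2 had an adjusted p of 0.0890. Its preparation means lay between 6.57 and 6.86.

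Of the 9 sensors and sensor enzymes, 4 (44.4%) differed between preparations, close to the 45.6% of all genes, and these were Oas2, Oasl2, Dhx58 and Ddx58. Oas2, which makes the oligoadenylates that activate RNase L, had levels of 6.14, 7.19 and 7.02 with PDGF-B and 6.27, 7.25 and 6.91 without it in P524, P338 and P522, against 7.15, 7.25 and 6.31 with PDGF-B and 7.06, 7.19 and 6.22 without it in P11, P393 and P530. The 4 arrays of P524 and P530 all lay below the other 8, whatever the genotype or ligand. The difference was -1.02 ± 0.08 (SE) between P524 and P338, or 2.02-fold, and -0.96 ± 0.08 (SE) between P530 and P393, or 1.94-fold (F test adjusted p = 3.45e-06). Oasl2, a related synthetase, had levels of 7.03, 7.88 and 8.33 with PDGF-B and 7.04, 7.91 and 8.21 without it in P524, P338 and P522, against 7.65, 7.72 and 7.30 with PDGF-B and 7.65, 8.05 and 7.09 without it in P11, P393 and P530. It was highest in P522 and lowest in P524 (adjusted p = 3.86e-05).

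Dhx58 and Ddx58 encode the cytoplasmic RNA sensors LGP2 and RIG-I. Dhx58 had preparation means of 6.24, 6.90 and 6.81 in the knockout preparations P524, P338 and P522, against 6.81, 6.79 and 6.54 in the wild-type preparations P11, P393 and P530 (adjusted p = 3.44e-04). Ddx58 had 6.93, 7.23 and 6.92, against 7.20, 7.37 and 6.75 (adjusted p = 0.00137), so that in P524 it was no lower than in P522. Eif2ak2, the kinase PKR that stops translation on double-stranded RNA, had an adjusted p of 0.103, and its preparation means spanned only 9.51 to 9.76. Zbp1, Oas1a, Oasl1 and Ifih1 had adjusted p-values between 0.246 and 0.449. Of these, Oas1a and Oasl1 were above background on 8 arrays each and Ifih1, the RNA sensor MDA5, on 4, with 0 of 3 among knockout arrays with PDGF-B, so no fold is given for it.

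Of the 9 antiviral effectors tested, 6 differed between preparations, where 45.6% of all genes did. Ifit3 had levels of 6.99, 7.89 and 8.69 with PDGF-B and 7.36, 8.22 and 8.94 without it in P524, P338 and P522, against 7.91, 7.51 and 7.07 with PDGF-B and 7.78, 8.34 and 7.36 without it in P11, P393 and P530. P522 was high and P524 low among knockout arrays, 3.10-fold apart (-1.63 ± 0.17 (SE) on the log2 scale, F test adjusted p = 1.29e-04). On the scale used here, which shrinks the differences of dim genes, this was the widest gap of any member between preparations of the same genotype. The second Ifit3 probe above background gave the same lowest preparations. Ifitm3 had levels of 12.07, 12.98 and 12.55 with PDGF-B and 12.27, 12.83 and 12.59 without it in P524, P338 and P522, against 12.58, 13.06 and 12.49 with PDGF-B and 12.56, 13.07 and 12.37 without it in P11, P393 and P530. It was lowest in P524 and P530 and highest in P338 and P393 (adjusted p = 1.38e-04).

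Bst2 departed from this order among wild-type cells. Its levels were 7.54, 8.82 and 8.42 with PDGF-B and 7.97, 9.05 and 9.43 without it in P524, P338 and P522, against 8.69, 8.01 and 8.16 with PDGF-B and 8.35, 7.78 and 8.14 without it in P11, P393 and P530. P524 was low among knockout arrays, 2.27-fold below P338, but P393 and not P530 had the lowest wild-type mean (adjusted p = 2.76e-04). Rsad2, the radical-SAM enzyme viperin, and its neighbour Cmpk2, a mitochondrial nucleotide kinase, had adjusted p-values of 0.00133 and 0.0114. Rsad2 had preparation means of 6.22, 7.07 and 6.50 in P524, P338 and P522, against 6.75, 7.09 and 6.09 in P11, P393 and P530. Ifi35, a leucine zipper protein, ran the other way, with preparation means of 7.48, 6.99 and 7.07, against 7.17, 7.08 and 7.46, so that it was highest in P524 and P530 (adjusted p = 0.00258). Mx2, a dynamin-like GTPase, Ifit2, an RNA-binding relative of Ifit3, and Rtp4, a receptor chaperone, had adjusted p-values of 0.0948, 0.154 and 0.450.

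Of the 5 factors of ISG15 conjugation and ADP-ribosylation, 4 differed between preparations, where 45.6% of all genes did. Parp14, an ADP-ribosyltransferase of the macrodomain family, had levels of 7.43, 8.78 and 8.68 with PDGF-B and 7.50, 8.88 and 8.67 without it in P524, P338 and P522, against 8.79, 8.67 and 7.88 with PDGF-B and 8.76, 8.72 and 8.09 without it in P11, P393 and P530. Both P524 arrays and both P530 arrays lay below the other 8 arrays. The difference was -1.37 ± 0.08 (SE) between P524 and P338, or 2.58-fold, and -0.80 ± 0.08 (SE) between P530 and P11, or 1.74-fold, and the F test gave the smallest adjusted p of the members, 1.26e-06. Usp18, which removes ISG15 and damps the type I receptor, had preparation means of 6.60, 7.54 and 7.36 in P524, P338 and P522, against 7.18, 7.32 and 6.68 in P11, P393 and P530 (adjusted p = 2.72e-04). Trim25, a ubiquitin ligase that acts on RIG-I, had 8.46, 9.53 and 9.44, against 9.20, 9.63 and 8.78 (adjusted p = 5.15e-04). Isg15, the ubiquitin-like modifier, had 6.94, 7.50 and 7.62, against 7.41, 7.34 and 7.38, so that it was low in P524 and level across the wild-type preparations (adjusted p = 0.0155). Parp9 had an adjusted p of 0.206 and was above background on 8 arrays.

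**Figure D2:**
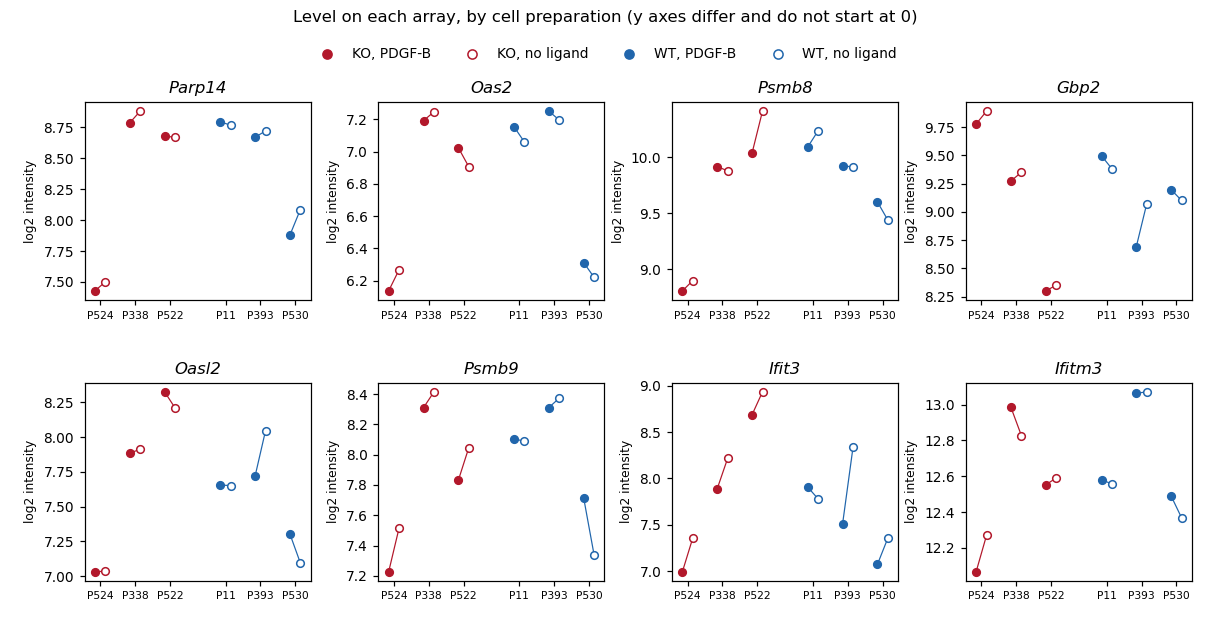
Each panel gives the log2 intensity of 1 gene on the 12 arrays by preparation, knockout in red and wild type in blue, with PDGF-B as filled and without ligand as open points joined by a line. The 8 genes have the smallest p-values between preparations; P524 is lowest of the knockout preparations in all panels but that of Gbp2, where it is highest, and the lines within a preparation are short beside the gaps between preparations for Parp14 and Oas2.

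All 4 interferon-inducible GTPases, which act on vacuoles that hold parasites and bacteria, differed between preparations, where 45.6% of all genes did, and 1 ran against the rest. Gbp2 had levels of 9.78, 9.27 and 8.30 with PDGF-B and 9.89, 9.35 and 8.35 without it in P524, P338 and P522, against 9.50, 8.69 and 9.20 with PDGF-B and 9.38, 9.07 and 9.10 without it in P11, P393 and P530. It was highest in P524 and lowest in P522, 2.85-fold apart (1.51 ± 0.11 (SE), F test adjusted p = 1.67e-05), and its second probe above background gave the same lowest preparations. Igtp had preparation means of 6.62, 7.32 and 7.20 in P524, P338 and P522, against 7.33, 7.29 and 6.92 in P11, P393 and P530 (adjusted p = 3.36e-04). Gbp3 had 7.09, 7.80 and 7.38, against 7.58, 7.41 and 7.29 (adjusted p = 6.04e-04), although its second probe was lowest in P522. Irgm1 had an adjusted p of 0.0103 with P524 and P530 lowest, and its other 2 probes above background were lowest in P338 and P11.

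The antigen-processing members Psmb8 and Psmb9, catalytic subunits of the immunoproteasome, both differed between preparations, where 45.6% of all genes did. Psmb8 had levels of 8.81, 9.92 and 10.04 with PDGF-B and 8.90, 9.88 and 10.41 without it in P524, P338 and P522, against 10.09, 9.92 and 9.60 with PDGF-B and 10.24, 9.91 and 9.44 without it in P11, P393 and P530. P524 was the lowest preparation, 2.58-fold below P522 (adjusted p = 1.59e-05). Psmb9 had levels of 7.23, 8.31 and 7.83 with PDGF-B and 7.52, 8.41 and 8.05 without it in P524, P338 and P522, against 8.10, 8.31 and 7.71 with PDGF-B and 8.09, 8.37 and 7.34 without it in P11, P393 and P530, with P524 and P530 the low samples (adjusted p = 5.29e-05). Tap1, a subunit of the peptide transporter encoded between them, lay between 6.27 and 6.51 on the 12 arrays (adjusted p = 0.616). Cxcl10, a chemokine that draws T cells, had preparation means of 6.09, 6.31 and 6.17 in P524, P338 and P522, against 6.43, 6.33 and 5.97 in P11, P393 and P530 (adjusted p = 0.00482).

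The other genes of the pathway were read in the same test, in which 45.6% of all genes were called between preparations. Of 21 interferon gene symbols, some of them older and newer names of the same gene, 18 had a probe, 6 were tested and 0 were called. The smallest adjusted p among them was 0.117, for Ifna6, and 0 had an unadjusted p under 0.05. Ifnb1 was above background on 2 arrays and Ifng on 0. All 5 receptor genes tested were called, with Ifngr1 at 7.91, 8.38 and 8.95 in P524, P338 and P522, against 8.95, 8.22 and 8.38 in P11, P393 and P530, whereas Ifnar1 was above background on 0 arrays. Of the signalling and feedback genes 8 of 11 were called, among them the phosphatase Ptpn1, with 7.53, 8.85 and 9.51, against 9.09, 9.03 and 9.03. Of the other IRF factors 5 of 6 were called, and P524 was the lowest knockout preparation for all 6, against 36.2% of all genes. Irf1, the main factor downstream of interferon gamma, had 9.59, 10.37 and 9.89, against 10.45, 10.33 and 9.74 (adjusted p = 1.95e-04). Of 13 genes that lead to interferon induction 9 were called, with the kinase Ikbke at 7.11, 8.16 and 7.26, against 8.24, 7.74 and 7.31.

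Of 36 further interferon-induced genes 23 were called (63.9%), against 45.6% of all genes. P524 was lowest for 20 and P530 for 26, where they were lowest for 36.2% and 34.1% of all genes. Oas1g, another oligoadenylate synthetase, had preparation means of 7.08, 8.78 and 9.16 in P524, P338 and P522, against 8.82, 8.59 and 8.22 in P11, P393 and P530 (adjusted p = 3.71e-07). Of the MHC class I and peptide-loading genes 13 of 14 were called, against the same 45.6%. P524 and P530 were each the lowest of their genotype for 11, against the same 36.2% and 34.1%. H2-D1, a class I heavy chain, had 10.42, 12.34 and 12.73, against 12.51, 12.62 and 11.69 (adjusted p = 1.19e-07), and H2-T23 had 8.73, 10.44 and 10.77, against 10.34, 10.76 and 9.87 (adjusted p = 3.32e-07). Of the MHC class II genes 7 of 8 were called, and Cd74, the invariant chain, had 7.31, 8.95 and 9.14, against 10.87, 7.59 and 6.27, lowest in P530 and highest in P11.

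Markers of cell types also differed between these preparations, and in bulk RNA fewer cells of a type and less RNA per cell cannot be told apart. The members' mean log2 level was 7.23, 7.70 and 7.61 in P524, P338 and P522, against 7.60, 7.64 and 7.32 in P11, P393 and P530. The 13 macrophage and Kupffer cell markers tested averaged 9.25, 10.15 and 10.03, against 10.24, 10.09 and 9.98. P524 was lowest for 11 of the 13 among knockout preparations, against 36.2% of all genes. P530 was lowest for 7 of the 13 among wild-type ones, against 34.1%, and 11 of the 13 were called, against 45.6%. Their summed intensity lay at 24808 to 45518 in knockout arrays with PDGF-B and 24317 to 45250 without it, against 36890 to 45173 in wild-type arrays with PDGF-B and 40360 to 44040 without it. Of the 13 markers, 11 were above background on all 12 arrays. Adgre1, the F4/80 antigen, was among these, at 10.55, 11.62 and 11.91, against 11.85, 11.82 and 11.70. Of the defining Kupffer genes, Clec4f was above background on 6 arrays and Cd5l on 0.

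The stellate and myofibroblast markers averaged 8.73, 8.36 and 7.97 in P524, P338 and P522, against 8.39, 8.54 and 8.57 in P11, P393 and P530, and the mesothelial markers 9.34, 9.50 and 7.19, against 8.76, 8.75 and 8.54. Desmin (Des) and smooth muscle actin (Acta2) were above background on all 12 arrays, Lrat, the retinoid-storing enzyme of quiescent stellate cells, on 2, Gfap on 3 and Rgs5 on 0. Summed stellate marker intensity was 14389 to 21188 in knockout arrays with PDGF-B and 13787 to 20492 without it, against 20092 to 23156 and 19632 to 21590 in wild-type arrays. Of the dendritic cell markers, Siglech was above background on 8 arrays and Ccr9, Cd209a and Xcr1 on 0, and of the hepatocyte markers Alb and Apoa1 on 0. Of 12 lymphocyte markers with a probe, 7 were above background on 0 arrays. The part of these cell types in the members' differences was not tested.

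**Figure D3:**
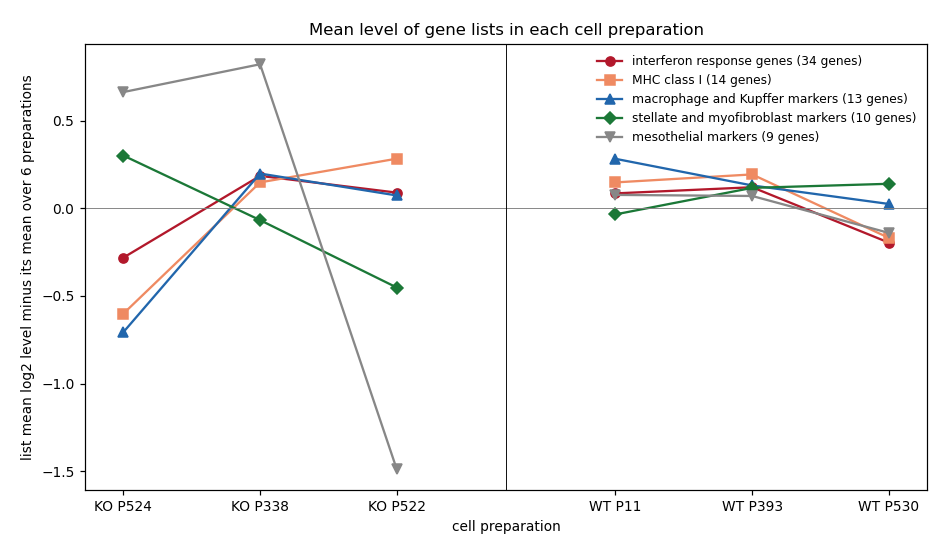
Mean log2 level of 5 gene lists in each of the 6 preparations, knockout at the left and wild type at the right, minus the list's mean over the 6. The interferon response and MHC class I lists are lowest in P524 and P530 of their genotypes, the macrophage list is lowest in P524 and differs less among wild-type preparations, and the mesothelial list is lowest in P522.

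The ligand comparison asked whether PDGF-B changed these genes in cells labelled Pdgfrb-knockout and in cells labelled wild type. In a limma model of the 4 group means, 0 of 34 members were called in knockout cells, where 0 of all 13300 genes (0%) were called, and 0 of 34 in wild-type cells, again with 0% of all genes. No member had an unadjusted p under 0.05 in either genotype, a level that 1.01% of all genes reached in knockout and 0.586% in wild-type cells. The members' median difference was -0.03 in knockout cells and -0.02 in wild-type cells on the log2 scale. The difference was under 0.1 in size for 25 of 34 members in knockout and 27 of 34 in wild-type cells. Of all 13300 genes it was so for 10109 and 10462, a similar share. With the preparation as a replicate block, in which each PDGF-B array is set against its own untreated partner, 0 members were called too, and the typical standard error of a member was 0.07 in place of 0.21. The blocked 95% interval lay within 1.5-fold in either direction for 32 of 34 members in knockout cells, all but Ifit3 and Bst2, and for 33 of 34 in wild-type cells, all but Ifit3. Those within it include Irf7, Rtp4, Oas1a, Oasl1, Parp9 and Ifih1, which were not above background on every array. Low signal shrinks differences on this scale, so their intervals do not bound the change in RNA. The same limit holds for Mx2, Cxcl10 and Zbp1, which were above background on all 12 arrays. Their mean levels were 6.14, 6.22 and 6.33, against 6.19 for Irf7.

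**Figure D4:**
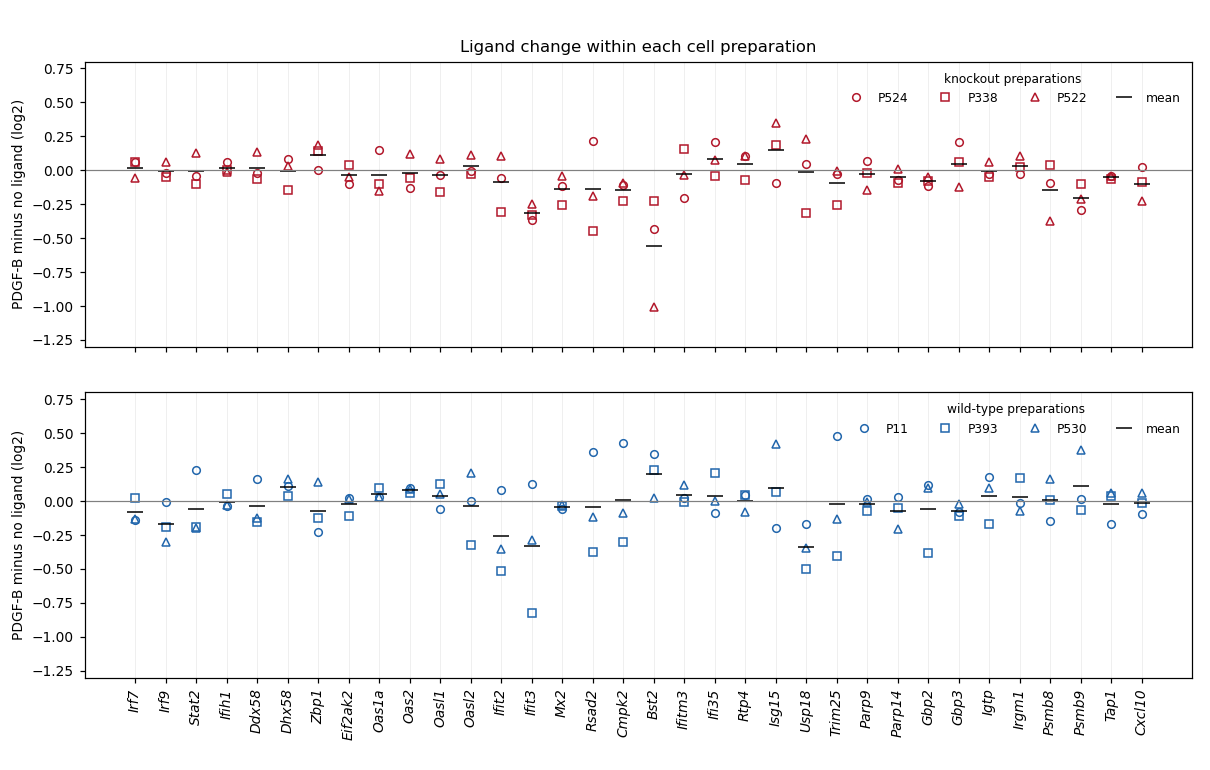
Difference in log2 level between the PDGF-B array and the untreated array of each preparation, for the 34 tested genes, with knockout preparations above and wild-type ones below; symbols are preparations and dashes their mean. Most points lie near 0, and Bst2 lies below 0 in all 3 knockout pairs and above 0 in all 3 wild-type pairs.

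In knockout cells the members with the smallest p-values in the model of group means were Mx2, Bst2, Zbp1, Tap1, Isg15 and Cxcl10. Mx2 had 5.98, 6.09 and 6.15 with PDGF-B and 6.09, 6.34 and 6.19 without it in P524, P338 and P522, a difference of -0.14 ± 0.09 (SE), with an unadjusted p of 0.168 and an adjusted p of 1.0 in limma. Bst2 differed by -0.56 ± 0.41 (SE), with an unadjusted p of 0.200. With the replicate block that p was 0.00113, the smallest of the members, and the adjusted p was 0.627 in limma. Zbp1, a sensor of Z-form nucleic acid that can start necroptosis, differed by 0.11 ± 0.10 (SE), with an unadjusted p of 0.296. The other 3 differed by between -0.10 and 0.15. All 3 knockout pairs were lower for 8 members, Ifit3, Mx2, Cmpk2, Bst2, Trim25, Gbp2, Psmb9 and Tap1, where 15.8% of all genes were, and all 3 were higher for 1, Zbp1, where 15.2% were.

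In wild-type cells the members with the smallest p-values in the model of group means were Ifit2, Usp18, Irf7, Irf9, Zbp1 and Ifit3. Ifit2 had 6.80, 6.73 and 6.44 with PDGF-B and 6.72, 7.25 and 6.79 without it in P11, P393 and P530, a difference of -0.26 ± 0.16 (SE), with an unadjusted p of 0.128 and an adjusted p of 1.0 in limma. Its pairs in P393 and P530 were lower and that in P11 was higher. Usp18 had 7.09, 7.07 and 6.50 with PDGF-B and 7.26, 7.57 and 6.85 without it, lower in all 3 pairs, a difference of -0.34 ± 0.33 (SE), with an unadjusted p of 0.321. With the replicate block that p was 0.00658 and the adjusted p was 0.998 in limma. All 3 wild-type pairs were lower for 4 members, Irf9, Mx2, Usp18 and Gbp3, where 10.8% of all genes were, and higher for 4, Dhx58, Oas1a, Oas2 and Bst2, where 10.1% were. Mx2 alone was lower in all 6 pairs, a pattern shown by 1.8% of all genes. Its pair differences were -0.11, -0.26 and -0.04 in P524, P338 and P522 and -0.06, -0.04 and -0.03 in P11, P393 and P530. Its mean level was only 6.14, where this scale shrinks differences.

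Ifit3 was the member with the largest mean ligand difference over both genotypes. Its pair differences were -0.37, -0.33 and -0.25 in P524, P338 and P522 and 0.13, -0.83 and -0.28 in P11, P393 and P530, so 5 of 6 pairs were lower with PDGF-B. In the blocked model the difference was -0.31 in knockout cells (95% interval -0.61 to -0.01, adjusted p = 0.792) and -0.33 in wild-type cells (95% interval -0.63 to -0.03, adjusted p = 0.998). In that model 3 members had an unadjusted p under 0.05 in knockout cells, Bst2, Psmb9 and Ifit3, where 6.26% of all genes did. In wild-type cells 4 did, Usp18, Ifit3, Irf9 and Ifit2, where 4.74% of all genes did, and all 7 of these differences were negative. None passed the adjustment over all genes.

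Between genotypes as labelled, 0 of 34 members were called without ligand, where 1 of 13300 genes (0.00752%) was, and 0 with PDGF-B, where 2 (0.015%) were. No member had an unadjusted p under 0.05 in either comparison, against 2.26% and 1.47% of all genes. The median difference of the members, knockout minus wild type, was -0.02 without ligand and -0.03 with PDGF-B. Their 95% interval lay within 1.5-fold for 20 of 34 members in each comparison, and for the other 14 a difference of that size was not excluded. These include Oas2, Oasl2, Ifit3, Rsad2, Parp14, Psmb8 and Psmb9, which differed between preparations. Those within 1.5-fold include the dim Irf7, Rtp4, Oas1a, Oasl1, Parp9, Ifih1, Mx2, Cxcl10 and Zbp1, whose intervals do not bound the change in RNA.

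Without ligand, Bst2 had the smallest p of the members. It had 7.97, 9.05 and 9.43 in knockout arrays P524, P338 and P522, against 8.35, 7.78 and 8.14 in wild-type arrays P11, P393 and P530. The groups overlapped, since the knockout P524 array lay within the wild-type range, and the difference was 0.73 ± 0.41 (SE), with an unadjusted p of 0.103 and an adjusted p of 1.0 in limma. Tap1 had 6.46, 6.51 and 6.47 in knockout arrays, against 6.43, 6.42 and 6.27 in wild-type arrays, without overlap, as for 6.08% of all genes. Its difference was 0.11 ± 0.07 (SE), with an unadjusted p of 0.143. Oasl1, Ifih1, Irgm1 and Ifit3 followed, with unadjusted p-values between 0.236 and 0.491. For Ifit3 the difference was 0.35 with all arrays and -0.03 without preparation P522.

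With PDGF-B, Ifit2 had 6.97, 6.82 and 6.83 in knockout arrays, against 6.80, 6.73 and 6.44 in wild-type arrays, without overlap, as for 5.17% of all genes. Its difference was 0.22 ± 0.16 (SE), with an unadjusted p of 0.194. Irf7, Tap1, Zbp1, Cmpk2 and Usp18 followed, with unadjusted p-values between 0.227 and 0.419. Usp18 had 6.63, 7.39 and 7.47 in knockout arrays, against 7.09, 7.07 and 6.50 in wild-type arrays, with the lowest knockout array, P524, between the wild-type values. Both genotype comparisons use the same preparations, so they are not separate evidence.

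**Figure D5:**
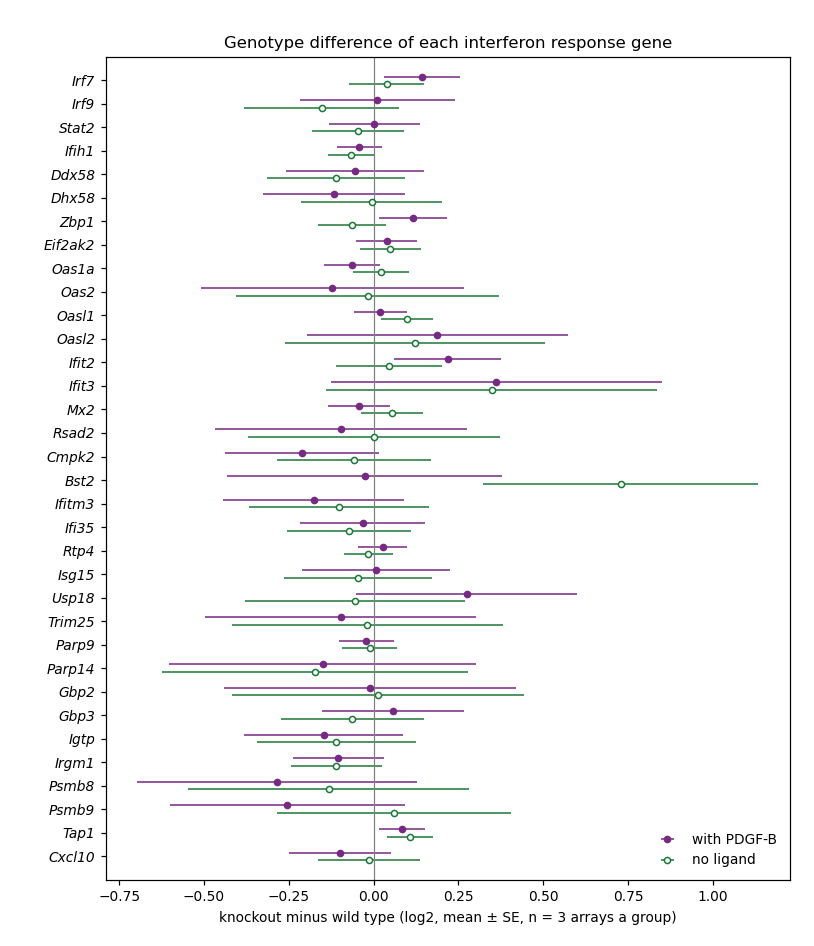
Knockout minus wild-type difference in log2 level of each tested gene, with PDGF-B as filled and without ligand as open points; bars are the standard error of the model of group means, with 3 arrays a group. The bars of few points do not reach 0, and those of Bst2, Ifit3, Parp14 and Psmb8 are among the widest.

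The genotype difference in the ligand change was called for 0 of 34 members and 0 of all genes (0%), and no member had an unadjusted p under 0.05, against 0.617% of all genes. Bst2 had the smallest p. Its pair differences were -0.44, -0.23 and -1.01 in P524, P338 and P522, against 0.35, 0.23 and 0.02 in P11, P393 and P530, so that it was lower with PDGF-B in 3 of 3 knockout pairs and higher in 3 of 3 wild-type pairs, as were 1.5% of all genes, while the opposite pattern held for 0 members and 1.37% of all genes. The knockout change minus the wild-type change was -0.76 ± 0.57 (SE), with an unadjusted p of 0.217. With the replicate block its 95% interval was -1.15 to -0.36, with an unadjusted p of 0.00150 and an adjusted p of 0.999 in limma. In that model 3 members had an unadjusted p under 0.05, Bst2, Psmb9 and Usp18, where 4.51% of all genes did. In the model of group means Zbp1, Ifit2, Mx2, Oas1a and Oasl1 followed Bst2, with differences between -0.10 and 0.18.

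Of the 99 genes tested in the 8 pathway lists, 0 were called in any of the 5 ligand and genotype comparisons in the model of group means, and 1, the adaptor Ticam1, had an unadjusted p under 0.05 (0.16 ± 0.06 (SE) in knockout against wild type without ligand, unadjusted p = 0.0277, adjusted p = 1.0 in limma). That level was reached by between 0.586% and 2.26% of all genes. With the replicate block 0 of the 99 were called for the ligand or for its difference between genotypes. All 8 MHC class II genes had a negative difference between PDGF-B and no ligand in wild-type cells, with a median of -0.29, and 6 were lower in 3 of 3 pairs, where 10.8% of all genes were. Of these 8 genes 5 had an unadjusted p under 0.05 in the blocked model, where 4.74% of all genes did, with a smallest adjusted p of 0.998 in limma. Cd74 had pair differences of 0.05, 0.12 and 0.28 in P524, P338 and P522, against -1.11, -0.17 and -0.46 in P11, P393 and P530, with the widest in P11. In the blocked genotype difference of the ligand change 4 of the 8 had an unadjusted p under 0.05, where 4.51% of all genes did, with a smallest adjusted p of 0.999.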

How the data were processed

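RNA was measured on 12 single-colour Illumina arrays. The deposited values are probe intensity on a linear scale, in a table of raw and a table of normalized signals. The sources used do not state how the second was normalized. The raw table was used, with the authors' normalized intensity as an alternative. All columns of the raw table were matched to samples by title, and those of the normalized table by the sample identifier that heads each column.

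In R 4.3.3 with limma 3.58.1, raw signals were background-corrected (normexp, offset 50), quantile-normalized and put on the log2 scale. The offset is added to every signal and shrinks the differences of dim genes most. Fold sizes and their order among genes therefore hold for this scale only. No detection p was used. The background of an array was the part below its mode, mirrored, and a probe was above background where its signal passed the upper 5% point of that background. Of 45281 probes, 26224 passed on at least 3 arrays. Of all probes, 34885 carried 1 gene symbol, 18 several and 10378 none, by GEO's platform annotation. The brightest kept probe by mean stood for each of 13300 genes. Levels of different probes are not compared. The 12 arrays limit the precision.

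Ligand and genotype contrasts came from a model of the 4 group means (8 residual degrees of freedom), and preparation differences from a model with a term per preparation and a ligand term per genotype (4 degrees). P-values were adjusted by Benjamini-Hochberg over 13300 genes, with 0.05 as threshold. The pipeline was tested on simulated data. The contrasts between pairs of preparations were added after seeing the data. The shared title codes pair the arrays: deviations from the group means of same-code arrays correlated at 0.585 to 0.930, and no array correlated above 0.367 with another code. The replicate block is therefore given beside results it bears on. For genotype it was fitted as a random block (statmod 1.5.0, correlation 0.631). Of the correlations with another code, the highest was 0.367 for both P524 and P530, and 0.324 for both P338 and P393. What these codes share was not tested.

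The members, pathway lists and marker lists were chosen with earlier results of these data known. Genes named in full are the members with the 6 smallest p-values per comparison (8 between preparations), the 3 with the largest range of preparation means, and up to 4 genes of each pathway list by p. Promoters are RefSeq sequences of GRCm38.p6.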

Additional observations from a re-analysis of the deposited data

Results flagged for a closer look

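The ligand difference of Bst2, which tethers budding virus, had opposite signs in the genotypes. All 3 knockout pairs were lower with PDGF-B and all 3 wild-type pairs were higher, as in 1.5% of the 13300 genes tested. The knockout minus wild-type change was -0.76 on the log2 scale, and the test of this difference in limma gave an adjusted p of 1.0, or 0.999 with the replicate block. The wild-type pair of P530 differed by only 0.02.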

How the results depend on the processing

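Of 541 recomputed values of single genes, 537 counted as unchanged, among them all 104 between preparations. Those 104 are ranges of preparation means without a sign, so only their side of the threshold was checked. They belong to the members with the smallest p-values in that test. The other values are uncalled ligand and genotype differences, read for direction and side of the threshold. Their comparisons called at most 2 of 13300 genes, so staying uncalled says little. The 4 exceptions reversed the sign of uncalled differences. Zbp1 with PDGF-B in wild-type cells was 0.0018 with the mean of a gene's probes, against -0.07, and ran from -0.18 to 0.0090 when 1 replicate was left out, the highest without WT replicate 1 (P11). Ifit3 in knockout against wild type without ligand was 0.35, and ran from -0.035 without KO replicate 3 (P522) to 0.75 without KO replicate 1 (P524), and Oasl1 in the genotype difference of the ligand change was 0.022 with the mean of probes, against -0.08. No member was called for ligand or genotype under any alternative.

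The members' median PDGF-B difference in knockout cells was -0.063 with median scaling and ran from -0.039 to 0.0063 when 1 replicate was left out. Genes called between genotypes without ligand numbered 1, and 2 with no background correction, with the authors' normalized values, with the mean of probes, with a trended robust prior and with the replicate block, and 0 to 3 when 1 replicate was left out. With PDGF-B 2 were called, 0 with median scaling or with the compared groups only, 1 with the strict filter on low signal, and 0 to 3 when 1 replicate was left out. Between preparations 3673 to 6789 genes and 15 to 25 members were called when 1 preparation was left out, the fewest without P524. Members called lower numbered 10 in P524 against P522 and 5 in P530 against P11 with median scaling, and 22 in P530 against P393, against 15, where that scaling called 24.6% of all genes lower. The cause of these changes was not tested, except that fewer arrays enter the fits that leave replicates out. With the replicate block no other call changed. Dim probes limit the reading of Irf7, Rtp4, Oas1a, Oasl1, Parp9 and Ifih1, which were not above background on every array. They also limit that of Mx2, Cxcl10 and Zbp1, which were above it on every array but about as dim as Irf7.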
